A study of Mus musculus with 6 samples.

Results

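Transcripts of 10 cytokine receptor genes were measured in endothelial cells of mouse lymph nodes (LN). The genes were taken as a named set of receptor subunits, and all 27 probe sets that the platform table assigns to them alone were used, of the 34945 probe sets that belong to 1 gene and 18193 genes in all. The cells came from 6-week-old C57BL/6 mice, from peripheral and mesenteric LN that were pooled, digested, depleted of CD45+ cells and sorted by gp38 and CD31. The number of mice behind a sample was not given in the sources used here. From 20 ng of total RNA per sample, amplified in 2 rounds, 6 arrays were hybridized, 3 labelled double positive (replicates 1 to 3) and 3 labelled CD31+ (replicates 1 to 3), with no treatment or altered gene in either group. The cell type words of the same labels, BEC for the double-positive and LEC for the CD31+ arrays, are the reverse of the gates in the study's methods, which sorted lymphatic endothelial cells (LEC) as gp38+ CD31+ and blood endothelial cells (BEC) as gp38neg CD31+. The arrays are therefore called by their gate, and with the cell type words in place of the gates every difference below would keep its size and change its sign. Each value is a log2 RNA abundance per probe set, with a common floor at 2.39, and each difference is double positive minus CD31+.

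Cytokines act through paired receptor chains, of which 1 or both carry the signal. The receptors of the IL-6, IL-4 and IL-3 families, and those of interferons and IL-10, have no kinase of their own and work through bound Janus kinases (JAK) and STAT transcription factors, whereas the IL-1 receptor recruits MyD88 and IRAK proteins and leads to NF-kB. In endothelium these pathways are known to regulate adhesion molecules, chemokines and barrier function, and shared chains such as gp130 serve many ligands.

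The gates were checked against markers. Of 8 lymphatic endothelial markers, 5 were higher on the double-positive arrays in limma at 5% FDR, among them Pdpn, which encodes gp38, at 4.07 (adjusted p = 0.0428), and Lyve1 at 5.32 (adjusted p = 0.0111). Of 8 blood endothelial markers 5 were lower, among them Cd34 at -4.37 (limma adjusted p = 0.0169) and Flt1 at -4.52 (limma adjusted p = 0.0111). The markers called in both lists thus lay in the direction of the gates and not in that of the cell type words. With the replicate block 0 of the lymphatic and 0 of the blood endothelial markers passed (adjusted p from limma of 0.196 for Pdpn, 0.109 for Lyve1, 0.124 for Cd34 and 0.132 for Flt1). Prox1 differed by 0.07 at its brightest probe set and by 3.71 at another (limma adjusted p = 0.0743), which had 6.76 to 7.38 against 2.59 to 3.91. Pecam1, the CD31 gene, had values between 2.40 and 2.59 on all 6 arrays, near the floor. The double-positive arrays were brighter in general. The median difference of the 5764 probe sets averaging 5 or more was 0.75, and centring the arrays on this set lowers each difference by 0.68, so the sign of any positive difference smaller than 0.68 depends on the scaling. Of 11 hematopoietic markers none reached 5 on 3 arrays, and their summed log2 values ran from 27.78 to 27.94 in the double-positive and from 28.05 to 29.95 in the CD31+ arrays, where 11 values at the floor would sum to 26.34. Cd3g, Cd79a and Flt3 were at the floor on every array, Cd3e lay between 2.40 and 2.45 and Ms4a1 between 2.64 and 3.01. Ptprc, the CD45 gene, had 2.53 to 2.74 in the double-positive and 4.37, 2.77 and 4.03 in the CD31+ arrays. These groups did not overlap (limma adjusted p = 0.659).

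At 5% FDR over all 45037 probe sets limma called 0 of the 10 receptor genes in either direction, where 1.06% of all genes passed as higher and 0.225% as lower. Without adjustment, p was under 0.05 for 4 receptor genes as higher and 1 as lower, beside 14.4% and 2.44% of all genes. The 10 genes fell into those with levels well above the floor in both groups and those near it. At the brightest probe set (by mean over the 6 arrays), 7 genes averaged at least 5, Il1r1 reached 5 in the CD31+ arrays alone, and Il4ra and Il3ra stayed under 3.7 on all arrays. Groups did not overlap for 3 genes that were higher in the double-positive arrays (Il6st, Lifr and Il10rb) and for 2 that were lower (Il1r1 and Il4ra), beside 16.9% and 3.42% of all genes. With a filter that kept probe sets at 5 or more on at least 3 arrays, 8 of the 10 genes were tested, and 4 passed as higher (Il6st, Lifr, Il10rb and Ifnar2) and Il1r1 as lower. Under that filter 36% of the 4213 genes tested were higher and 4.34% lower. After filtering and centring 0 passed as higher and Il1r1 alone as lower, beside 13.9% and 10.3% of all genes. Il1r1 passed the filter through the CD31+ arrays only, so that its test there was not independent of the filter. Il10rb reached 5 on all double-positive arrays but only on replicate 1 of the CD31+ arrays, so the same limit holds for its test.

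**Figure D1:**
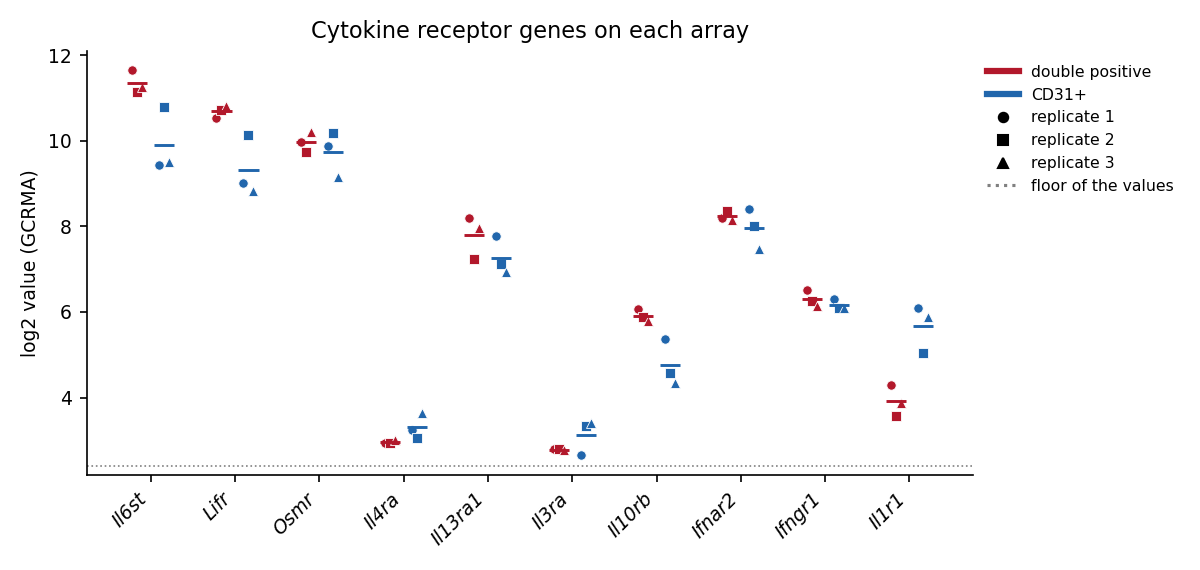
Log2 values (GCRMA) of the 10 receptor genes on each of the 6 arrays, each gene at its brightest probe set. Symbols are arrays by replicate number, bars are group means (n = 3) and the dotted line is the floor of 2.39. Il6st, Lifr and Il10rb lie higher in all double-positive arrays, Il1r1 lies lower, and Il4ra and Il3ra lie near the floor.

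Both chains of the LIF receptor were higher in the double-positive arrays as deposited, and neither difference passed over all probe sets. Il6st encodes gp130, the signal-transducing chain shared by IL-6, LIF, oncostatin M and related cytokines. It had log2 values of 11.65, 11.14 and 11.26 in the double-positive and of 9.44, 10.78 and 9.49 in the CD31+ arrays (replicates 1 to 3). The groups did not overlap, and the CD31+ array numbered 2 lay within 0.4 of its double-positive partner, while the other two CD31+ arrays lay more than 1.7 below theirs. The means were 11.35 ± 0.266 and 9.90 ± 0.759 (SD, n = 3 each), a difference of 1.45 (SE 0.445, limma adjusted p = 0.416).

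Lifr, the LIF-binding chain that pairs with gp130, had 10.54, 10.72 and 10.82 in the double-positive arrays and 9.002, 10.13 and 8.82 in the CD31+ arrays. Again the groups did not overlap, and the CD31+ array numbered 2 was the highest of its group. The mean difference was 1.38 (SE 0.400, limma adjusted p = 0.377), which is 2.60-fold on the linear scale. In bulk RNA of sorted cells, fewer cells that express a gene and less RNA per cell cannot be told apart. With the filter, limma gave adjusted p-values of 0.0236 for Il6st and 0.0228 for Lifr. After filtering and centring the differences were 0.77 and 0.70 and the adjusted p-values 0.143 and 0.165. With the filter and any 1 array left out, Il6st had an adjusted p of 0.00366 to 0.101 and Lifr of 0.00388 to 0.0757 in limma, and the lowest of each came without CD31+ replicate 2, where the differences were 1.89 and 1.78.

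Osmr, the oncostatin M receptor chain that also pairs with gp130, was bright in both groups and overlapped between them. Its log2 values were 9.97, 9.74 and 10.21 in the double-positive arrays and 9.87, 10.19 and 9.16 in the CD31+ arrays. The difference of 0.23 (95% interval -0.62 to 1.09, limma adjusted p = 0.770) became -0.44 with centred arrays and -0.06 without CD31+ replicate 3, so no direction was held. The other probe sets of these 3 genes were dimmer. For Il6st the set with a mean difference of 0.66 had CD31+ values from 4.53 to 6.59 that overlapped the double-positive values of 5.91 to 6.31, and the remaining sets, at -0.01 and 0.01, lay below 4.5. For Lifr a set at 5.64 to 5.92 against 5.03 to 5.64 differed by 0.39 (limma adjusted p = 0.659), and the set near the floor by -0.08. With centred arrays the difference of 0.66 for Il6st became -0.02 and that of 0.39 for Lifr became -0.29. The dimmer sets of Osmr lay at or near the floor.

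The RefSeq promoter table (GRCm38.p6) holds windows for 9 of the 10 genes, 11 in all, of which the 250 bases before the start were used, and Il10rb has no entry. The windows of Il6st and Lifr are shown because these are the receptor pair that was higher together, with every CG dinucleotide in capitals. Il6st, plus strand of chr13:112463820-112464069, holds 26 CG, more than 90.4% of all 32851 windows. Lifr, plus strand of chr15:7129322-7129571 at the first of its 2 listed starts, holds 43, more than 99.3% of windows, and its other window holds 3.
Il6st: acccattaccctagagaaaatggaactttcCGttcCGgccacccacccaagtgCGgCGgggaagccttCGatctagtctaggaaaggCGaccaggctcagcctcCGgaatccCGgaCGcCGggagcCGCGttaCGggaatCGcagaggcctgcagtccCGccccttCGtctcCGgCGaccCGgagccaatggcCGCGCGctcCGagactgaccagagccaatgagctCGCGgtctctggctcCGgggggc
Lifr: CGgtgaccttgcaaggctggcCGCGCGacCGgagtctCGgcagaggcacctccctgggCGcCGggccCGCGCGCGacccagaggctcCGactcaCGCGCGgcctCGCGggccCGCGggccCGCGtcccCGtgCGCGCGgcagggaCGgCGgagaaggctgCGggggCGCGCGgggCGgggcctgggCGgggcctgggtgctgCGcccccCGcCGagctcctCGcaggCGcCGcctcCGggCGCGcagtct

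The motif TTCNNNGAA, the palindromic core of STAT binding sites, was searched on both strands. It is absent from the windows of Il6st and Lifr and was found in 1 of the 11 windows, that of Ifnar2, as TTCCTGGAA at position -214 from the start site, while 7.02% of all windows hold it. The core of the interferon-stimulated response element, GAAA followed by any 2 bases and GAAA again, was found in none of the 11 and in 2.98% of all windows. A match in these letters describes the window and is not a measured binding site.

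Il1r1 had the largest difference among the receptor genes at their brightest probe sets, and it was lower in the double-positive arrays. It lies on chromosome 1 (40222480 to 40316201, GRCm38.p6) and encodes the signalling receptor for IL-1 alpha and IL-1 beta. It had log2 values of 4.30, 3.57 and 3.87 in the double-positive arrays and 6.10, 5.04 and 5.88 in the CD31+ arrays. All CD31+ arrays lay above all double-positive arrays, and the differences within pairs of the same number were -1.80, -1.47 and -2.01. The means were 3.91 ± 0.367 and 5.67 ± 0.558 (SD, n = 3 each), a difference of -1.76 (SE 0.370, unadjusted p = 0.00720, limma adjusted p = 0.208), which is 3.39-fold on the linear scale. With the filter the limma adjusted p was 0.00725, and after filtering and centring the difference was -2.44 (limma adjusted p = 0.000789). Only the CD31+ arrays reached 5, so these tests were not independent of the filter.

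Among the 4207 genes whose brightest probe set passed the filter, 2.66% had a lower difference than Il1r1, against 82.6% for Il6st, 79.9% for Lifr and 71.1% for Il10rb. With the filter and any 1 array left out, the difference of Il1r1 ran from -2.08 to -1.55 and its adjusted p from 0.00321 to 0.0334 in limma. Il1r1 was kept by the filter through the CD31+ arrays alone, so its place among these genes and these p-values share that limit. The other probe set of Il1r1 was at the floor on all arrays. Some fibroblast and pericyte markers were also lower in the double-positive arrays. Of 11 such markers limma called 0 over all probe sets. With the filter it tested 6 and called 4 lower in the double-positive arrays (Pdgfrb, Col1a2, Col3a1 and Acta2), beside 4.34% of all genes. Pdgfrb, Col1a2 and Acta2 were kept by the filter through the CD31+ arrays alone, as Il1r1 was. Dcn overlapped between groups (-0.32), Rgs5 differed by 0.33, and Col1a1, Lum, Des and Myh11 lay below 3.2. The summed log2 values of the 11 markers were 38.28 to 41.98 in the double-positive and 46.36 to 58.61 in the CD31+ arrays, with Des at the floor on every array. In the CD31+ arrays Col1a2 had 7.10, 6.77 and 5.49, Pdgfrb 7.06, 8.50 and 5.12, and Acta2 6.34, 7.43 and 5.18 (replicates 1 to 3). Pdgfra had the smallest adjusted p of the 11 markers, with 4.31, 3.84 and 3.94 in the CD31+ arrays against 2.50 to 2.69. Its difference was -1.41 (limma adjusted p = 0.0590). The part of these markers in the difference of Il1r1 was not tested. Ptprc, the CD45 gene of leukocytes, had 2.53 to 2.74 in the double-positive arrays and 4.37, 2.77 and 4.03 in the CD31+ arrays, and its part was not tested either.

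The windows before both listed starts of Il1r1 are shown as those of the member with the largest difference at the brightest probe set, again with CG in capitals. The first, plus strand of chr1:40224830-40225079, holds 3 CG, more than 29% of all windows. The other, plus strand of chr1:40266336-40266585, holds 7, more than 53.7%. Neither holds TTCNNNGAA. Which start was used in these cells was not measured.
Il1r1 first start: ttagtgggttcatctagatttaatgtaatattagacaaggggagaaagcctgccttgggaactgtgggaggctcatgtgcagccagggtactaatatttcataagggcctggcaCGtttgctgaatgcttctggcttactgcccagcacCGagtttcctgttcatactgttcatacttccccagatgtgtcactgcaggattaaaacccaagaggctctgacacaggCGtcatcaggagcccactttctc
Il1r1 other start: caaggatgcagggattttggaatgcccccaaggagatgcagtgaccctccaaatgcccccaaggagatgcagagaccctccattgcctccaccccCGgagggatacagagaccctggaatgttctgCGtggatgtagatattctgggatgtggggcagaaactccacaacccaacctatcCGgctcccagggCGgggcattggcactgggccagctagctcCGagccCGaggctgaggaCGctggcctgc

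**Figure D2:**
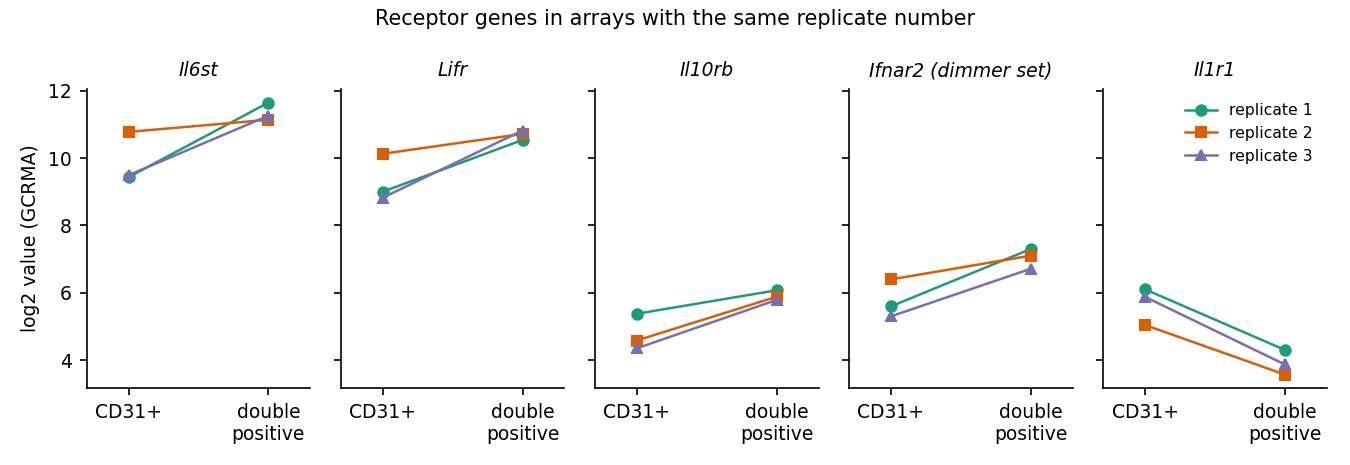
Log2 values (GCRMA) of 5 receptor probe sets on the CD31+ and the double-positive array of each replicate number, joined by a line per number. Il1r1 falls in each pair and the others rise in each pair, with the smallest rises of Il6st, Lifr and Ifnar2 in the pair numbered 2.

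Among the interferon and IL-10 receptor chains, Il10rb and 1 probe set of Ifnar2 were higher in the double-positive arrays after filtering, and Ifngr1 did not pass. Il10rb, the accessory chain shared by IL-10, IL-22 and interferon-lambda receptors, had 6.07, 5.88 and 5.79 in the double-positive arrays and 5.38, 4.58 and 4.35 in the CD31+ arrays. The groups did not overlap, and the difference was 1.14 (SE 0.308, limma adjusted p = 0.329). It passed after filtering (limma adjusted p = 0.0278) and was 0.47 after filtering and centring (limma adjusted p = 0.275). Of the CD31+ arrays only replicate 1 reached 5, so Il10rb met the filter through the double-positive arrays. These tests were not independent of the filter. Its other probe set lay between 2.43 and 2.66, near the floor.

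Ifnar2, a chain of the type I interferon receptor, gave different answers at its probe sets. The brightest had 8.19, 8.36 and 8.16 in the double-positive and 8.40, 8.02 and 7.48 in the CD31+ arrays, which overlap, with a difference of 0.27 (95% interval -0.43 to 0.97) that was -0.41 with centred arrays. A dimmer set had 7.30, 7.10 and 6.71 against 5.60, 6.40 and 5.30, with no overlap. Its difference of 1.27 (SE 0.355, limma adjusted p = 0.349) passed after filtering (limma adjusted p = 0.0238). After filtering and centring it was 0.60 and did not pass (limma adjusted p = 0.176). Centring alone gave a limma adjusted p of 0.0262, but gave 0.0128 to an Osmr probe set at the floor on all 6 arrays. That fit therefore cannot tell a difference of Ifnar2 from the shift put on every probe set. The dimmest set differed by 0.62, with values from 2.54 to 3.70. On GRCm38.p6 Ifnar2 (chromosome 16, 91372783 to 91405589) is followed by Il10rb (91406157 to 91425834), and Osmr (6813568 to 6874968) and Lifr (7090610 to 7197489) lie on chromosome 15.

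Ifngr1, the ligand-binding chain of the interferon-gamma receptor, had the smallest difference between groups as deposited. Its single probe set had 6.50, 6.25 and 6.15 in the double-positive arrays and 6.31, 6.09 and 6.10 in the CD31+ arrays. These values overlap, and the difference was 0.14 (95% interval -0.19 to 0.46, limma adjusted p = 0.659) or -0.54 after filtering and centring (limma adjusted p = 0.171). Centring alone gave a limma adjusted p of 0.0400, with the limit given for Ifnar2. Among the genes kept by the filter 20.8% had a lower difference.

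Of the receptors for IL-4, IL-13 and IL-3, Il13ra1 was well above the floor and the others were not. Il13ra1, which binds IL-13 and pairs with the IL-4 receptor alpha chain, had 8.18, 7.24 and 7.96 in the double-positive arrays and 7.76, 7.12 and 6.92 in the CD31+ arrays. The groups overlap, and the difference of 0.52 (95% interval -0.46 to 1.51, limma adjusted p = 0.659) was -0.15 with centred arrays. Its 4 other probe sets stayed between the floor and 3.39. Il4ra, the alpha chain of the IL-4 receptor, had 2.93, 2.94 and 3.01 against 3.25, 3.06 and 3.63 at its brightest set, lower in the double-positive arrays with no overlap and by 0.35 on average (limma adjusted p = 0.659), but close to the floor where a difference cannot be sized. Il3ra, the IL-3-binding chain, had 2.79, 2.79 and 2.77 against 2.65, 3.34 and 3.40, a difference of -0.35 (limma adjusted p = 0.659). Without CD31+ replicate 1 it became -0.59 and passed (limma adjusted p = 0.0320), the only call of a receptor gene on any set of 5 arrays over all probe sets.

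**Figure D3:**
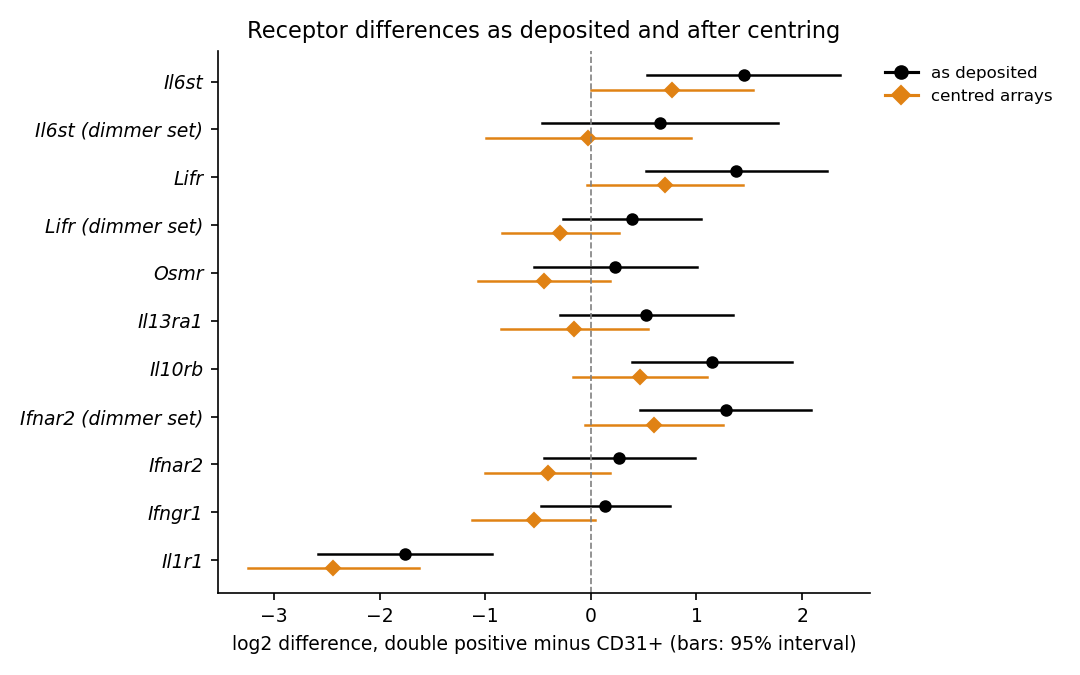
Log2 difference (double positive minus CD31+) of the 11 receptor probe sets kept by the filter, as deposited (black) and with centred arrays (orange), with 95% intervals from limma with the filter over 6 arrays. Il1r1 lies below 0 in both. The brightest sets of Il6st, Lifr and Il10rb and the dimmer set of Ifnar2 lie above 0 by less after centring. The dimmer sets of Il6st and Lifr fall below 0 after centring.

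**Figure D4:**
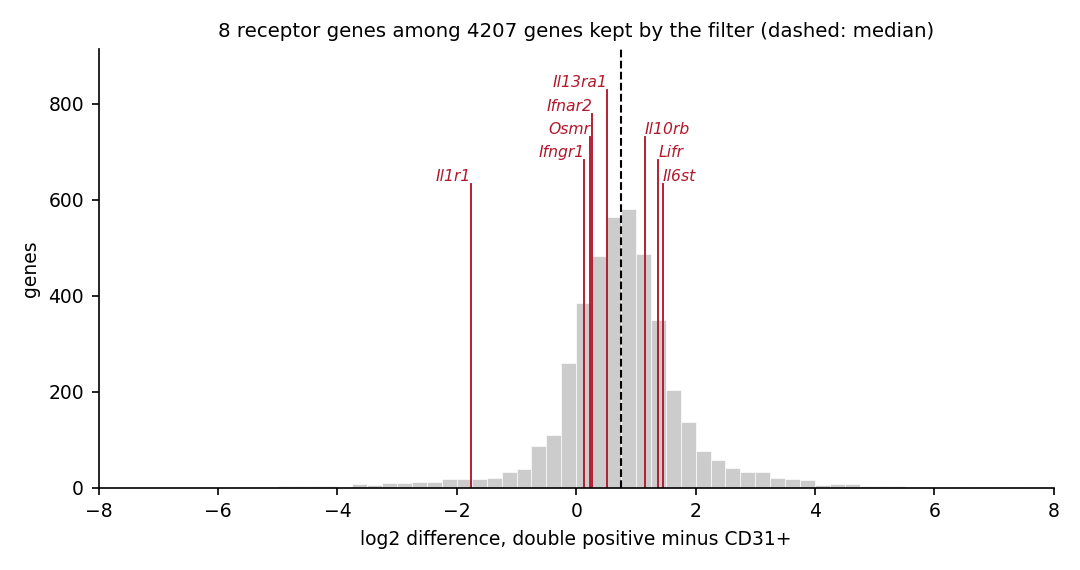
Histogram of log2 differences (double positive minus CD31+) of the 4207 genes whose brightest probe set passed the filter, with the 8 receptor genes among them as red lines and the median of all genes dashed. Il1r1, kept by the filter through the CD31+ arrays alone, lies in the lower tail, and the other receptors lie within the bulk of the genes.

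The 7 receptor genes with a mean of at least 5 had a median difference of 0.52, against 0.73 for all 3984 genes of that level. With the replicate number as a block over all probe sets limma called 0 receptor genes, beside 0.022% of all genes as higher and 0% as lower. With the block and the filter the calls were those of the filter alone, 4 higher and 1 lower, beside 49.2% and 5.25% of all genes.

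The genes whose pattern over the 6 arrays was most like that of Il6st were Tmem176b, Ndufa4 and Nckap1, with Pearson correlations of 0.994, 0.993 and 0.992 among 3983 genes with a mean of at least 5. Their differences were 1.25, 1.52 and 1.03, and each was highest among the CD31+ arrays on the array numbered 2. The genes most like Il1r1 were Cilk1 (0.995), Rnf144b (0.995) and Fam214a (0.979), with differences of -0.52, -1.26 and -1.19. These are descriptions over 6 arrays that share the group difference and the brightness of the arrays.

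Listed subunits of these and of other cytokine receptors were mostly dim, and the IL-13 decoy receptor stood out. Of 28 further receptor subunits measured, 5 reached 5 on at least 3 arrays and 12 stayed below 3 on all arrays. Limma called 1 higher and 0 lower. Il13ra2, which binds IL-13 without the usual signal, had 6.12, 6.35 and 5.78 in the double-positive arrays and 2.78, 2.77 and 2.78 in the CD31+ arrays, near the floor. The difference was 3.31 (SE 0.160, limma adjusted p = 0.0169) and 2.63 with centred arrays. Il27ra, the IL-27 receptor chain that pairs with gp130, had 5.86, 5.37 and 6.11 against 3.58, 4.42 and 2.94, a difference of 2.13 (limma adjusted p = 0.221) that passed after filtering (limma adjusted p = 0.00527) and also after filtering and centring (limma adjusted p = 0.0116). Il27ra was kept by the filter through the double-positive arrays alone, so those tests were not independent of the filter.

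The partners of the other receptors did not pass as deposited. Ifngr2, the signalling partner of Ifngr1, had 2.92 to 3.13 against 2.45 to 2.75, near the floor. Ifnar1, the partner of Ifnar2, had 3.60 to 4.61 against 3.73 to 4.40, and Il1rap, the partner of Il1r1, lay below 3.35 on all arrays. Csf2rb, the beta chain that pairs with Il3ra, was bright at 8.62 to 9.84 against 9.52 to 10.34, with a difference of -0.65 (limma adjusted p = 0.659) that was -1.32 and passed after filtering and centring (limma adjusted p = 0.0188). Csf2rb2, a close copy of it in the mouse whose transcripts may share probes, differed by 0.17.

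Among 26 JAK, STAT and feedback genes limma called 1 higher and 0 lower, and 13 reached 5 on 3 arrays. With the filter 4 were higher (Jak1, Socs3, Pias2 and Ptpn11) and 0 lower, a share of 30.8% beside 36% of all genes. At their brightest sets Socs3 and Pias2 did not pass with the filter (limma adjusted p = 0.106 and 0.287), so their calls came from other probe sets. Jak1, the kinase bound to gp130 and to the interferon receptors, had 7.29, 6.71 and 7.13 in the double-positive arrays and 4.91, 5.12 and 4.88 in the CD31+ arrays at the probe set that passed, a difference of 2.07 (limma adjusted p = 0.0433). At its brightest set it differed by 2.27 (limma adjusted p = 0.0671), and at the dimmest by 0.51. Both brighter sets passed after filtering and centring, at 1.59 and 1.39. In the CD31+ arrays both sets reached 5 on replicate 2 alone, so their tests with the filter were not independent of it. Jak2 differed by 0.44 and Stat3 by 0.33, neither past the test. Socs3, a feedback inhibitor induced through gp130, was very bright at 12.98 to 13.29 against 12.15 to 12.82 and differed by 0.65 (limma adjusted p = 0.444), and by 1.75 and 1.77 at dimmer sets. Ptpn11, the phosphatase SHP2 of gp130 signalling, differed by 1.05 (limma adjusted p = 0.491).

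Of 9 adaptors of the IL-1 receptor limma called 0 in either direction. Tab2, which links TRAF6 to the kinase TAK1, had 10.28, 10.14 and 10.45 against 9.20, 8.54 and 8.53, a difference of 1.53 (limma adjusted p = 0.110) that passed after filtering (limma adjusted p = 0.00576) and not after filtering and centring (limma adjusted p = 0.0576). Irak1 and Tollip differed by 0.20 and 0.41, and Myd88 lay between 6.10 and 6.18 on all arrays. With the filter, 4 adaptors were tested, of which 1 was higher (Tab2) and 0 were lower, beside 36% and 4.34% of all genes. So few genes cannot be set apart from those shares.

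Listed ligands of these and related receptors were mostly dim. Of 18 ligands 13 were below 3 on all arrays, 7 were within 0.1 of the floor on all 6 arrays, and 0 were called by limma. Lif, the ligand of the Lifr and gp130 pair, had 5.63, 4.71 and 5.71 in the double-positive arrays and 2.39, 2.86 and 2.39 in the CD31+ arrays, with no overlap and a fitted difference of 2.80 (limma adjusted p = 0.0723), whose size is not exact because 2 of the CD31+ values are at the floor. It reached 5 on 2 arrays and so was not tested with the filter, and its other probe set differed by -0.13. Il33 is a nuclear cytokine of the IL-1 family and not a ligand of the 10 receptors. It had 10.53, 9.63 and 10.84 against 7.40, 5.68 and 6.00, a difference of 3.97 (limma adjusted p = 0.117). It passed after filtering (limma adjusted p = 0.000563) and after filtering and centring. Il6 was lower, at 5.94, 7.00 and 5.91 against 7.71, 7.79 and 6.81, which overlap, with a difference of -1.15 (limma adjusted p = 0.605) that passed after filtering and centring, at -1.83 (limma adjusted p = 0.00409).

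Genes known to respond to these cytokines were higher where they passed as deposited. Of 18 such genes limma called 2 higher and 0 lower in the double-positive arrays. Vcam1, the adhesion molecule induced by IL-1 and IL-4, had 9.90, 10.32 and 10.34 against 7.26, 7.16 and 7.47, a difference of 2.89 (limma adjusted p = 0.0217). Cxcl10, a chemokine induced by interferons, had 7.98, 8.38 and 8.12 against 6.40, 6.49 and 6.66, a difference of 1.65 (limma adjusted p = 0.0372). Lbp, an acute-phase gene, differed by 1.98 (limma adjusted p = 0.10). Irf1 and Gbp2, also induced by interferons, overlapped between groups and differed by 0.42 and 0.22. With the filter 5 of 9 tested were higher (Cebpd, Pim1, Myc, Vcam1 and Cxcl10), beside 36% of all genes. With centring as well 4 were higher and Irf9 lower, beside 13.9% and 10.3% of all genes. Cebpd was kept by the filter through the double-positive arrays alone. The median difference of the listed genes averaging 5 or more was 0.17 for receptor subunits (n = 3), 0.44 for JAK, STAT and feedback genes (n = 11), 0.27 for adaptors (n = 4), 1.41 for ligands (n = 2) and 1.199 for response genes (n = 8), beside 0.73 for all genes of that level. The 2 ligands were Il33 and Il6, which went in opposite directions. Across the 5 lists of pathway genes limma called 4 genes higher and 0 lower, which with the replicate block were 0 and 0, with the filter 13 and 0, and after filtering and centring 8 and 5. Of the 99 genes 4.04% were higher as deposited, beside 1.06% of all genes. Of the 33 kept by the filter 39.4% were higher, beside 36% of all genes, and after centring 24.2% were higher and 15.2% lower, beside 13.9% and 10.3%.

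**Figure D5:**
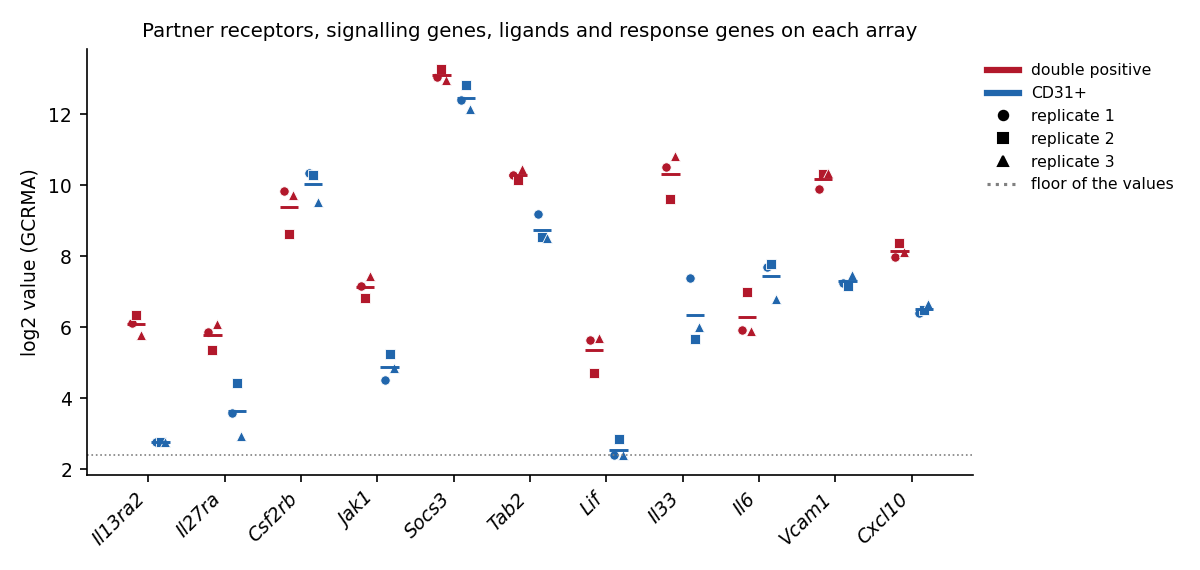
Log2 values (GCRMA) of 11 genes of the pathway on each of the 6 arrays, at the brightest probe set. Symbols are arrays by replicate number, bars are group means (n = 3) and the dotted line is the floor. Il13ra2 and Lif lie near the floor in the CD31+ arrays alone, and Csf2rb, Socs3 and Il6 differ little or go the other way.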

How the data were processed

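Sorted LN endothelial cells were hybridized to Affymetrix whole-genome mouse arrays (6 arrays, 3 per group). The authors normalized the arrays with GCRMA, and the deposited values are log2 abundances, 1 per probe set and array. GCRMA's version and the arrays normalized together are not given in the sources used here. Background adjustment sets dim probe sets to a common floor of 2.39 and compresses differences there. Of 45101 probe sets 64 are controls. The other 45037 comprise 34945 with 1 gene in the platform annotation, 932 with several and 9160 without a name, and 34741 of the 34945 matched RefSeq (GRCm38.p6) for current symbols.

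All 45037 were fitted with lmFit and eBayes (limma 3.58.1, R 4.3.3), without a block, and p-values were adjusted by Benjamini-Hochberg, with 5% FDR as the threshold. Genes were counted as called where 1 or more of their own probe sets passed, and were described at the brightest set by mean. The script was tested on simulated data. Alternatives were the replicate block, a filter (5 or more on at least 3 arrays, 6088 probe sets), centring, the filter with either, eBayes with trend and robust, probe sets averaged per gene and each array left out. Removal of both arrays numbered 2, and left-out arrays with the filter, were added after the data were seen. Same-numbered arrays deviated together over 5764 probe sets (correlations 0.341, 0.475 and 0.418, against -0.405 to 0.0566 otherwise), and the series text calls the samples paired, so the numbers were taken to pair the arrays. The main fit did not use this pairing. Precision is limited by the number of arrays. Without the block, p-values rest on the spread between the 3 samples of a group, which eBayes moderates over the probe sets fitted. With the block they rest on the spread of the differences within pairs, moderated likewise.

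The receptor genes and the lists of related genes and markers were chosen with earlier results of these data known. Of each list, every called gene, or the 3 with the smallest adjusted p where fewer than 3 were called, was to be named. Further genes named as partners or kinases were chosen after their values were seen. Listed genes without a probe set of their own in the tables used were not analysed here. Promoter windows are RefSeq's. Figures were drawn with matplotlib 3.10.9.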

Additional observations from a re-analysis of the deposited data

How the results depend on the processing

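The count of receptor genes called depended on which probe sets were tested and on scaling. Over all probe sets limma called 0 higher and 0 lower, which did not change with the replicate block, eBayes with trend and robust, probe sets averaged per gene or both arrays numbered 2 removed. After filtering, 4 were higher and 1 lower, beside 36% and 4.34% of all genes. Adding the replicate block to the filter left 4 and 1, beside 49.2% and 5.25%. Filtering with centring gave 0 and 1, beside 13.9% and 10.3%. With centred arrays and no filter they were 3 higher and 9 lower, counting genes with calls in both directions under each. Centring lowers every difference by 0.68, probe sets at the floor on all arrays included, and the prior degrees of freedom rose from 0.356 to 82.2. Leaving out any 1 array gave 0 higher and 0 to 1 lower over all probe sets, and 0 to 3 higher and 1 lower with the filter. With the filter and both arrays numbered 2 removed there were 3 and 1. Shares of all genes called were not counted for centring alone or for arrays left out. The receptor counts under those settings therefore cannot be set against all genes. The rises of Il6st, Lifr, Il10rb and Ifnar2 thus passed with all 6 arrays and the filter, and none of the 4 passed in every set of 5 arrays. Il1r1 kept its direction under every alternative, but none of them could have turned it. The filter, the block and eBayes with trend leave a difference as it is, and centring lowers a negative one further. Its groups did not overlap and its other probe set was at the floor, so leaving out arrays or averaging probe sets could not turn it either. The calls of Il1r1 with the filter rest on a gene kept through the CD31+ arrays alone and say nothing about stability. Those of Il10rb likewise rest on a gene kept through the double-positive arrays. Direction turned with centred arrays, with or without the filter, for Osmr (-0.44), Il13ra1 (-0.15), Ifngr1 (-0.54) and Ifnar2 at its brightest set (-0.41). It also turned for the dimmer sets of Il6st (-0.02) and Lifr (-0.29) that the filter kept. Leaving out any 1 array, with or without the filter, put Osmr between -0.0566 (without CD31+ replicate 3) and 0.456. Pathway genes called, 4 higher and 0 lower as reported, were 0 and 0 with the replicate block, 13 and 0 after filtering, 15 and 2 with block and filter together, 15 and 82 with centred arrays, 8 and 5 after filtering and centring, 2 and 0 with trend and robust, 1 and 0 without both arrays numbered 2, and 12 and 0 with the filter and without them. Why the calls changed was not tested. Il4ra and Il3ra were not kept by the filter and could not be fitted there, and near the floor the size of a difference is compressed.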
